A study of Canis lupus familiaris with 2 samples.

Results

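The annexin family was examined in RNA sequencing of MDCK cells, a long-used dog kidney cell line of columnar epithelial type. Its members were chosen by gene symbol and not by a measured value, although earlier results of these data were known. Of the 10 symbols (ANXA1 to ANXA9 and ANXA11), 9 had a row among the 23510 features of the files, and ANXA8 was not analysed here. Of these 9 genes, 8 had an FPKM value (the abundance of its reads per unit of exon length and of library size) above 1 in both cultures, the limit that 11057 features passed. The remaining member, ANXA6, stayed below it.

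Annexins are proteins that bind acidic phospholipids in membranes when calcium is present, through a conserved core of repeats, and that differ from each other mainly in their N-terminal tails. In epithelia they are abundant at the plasma membrane and on endosomes, where they link membrane to actin, take part in vesicle traffic and gather at sites of membrane damage. Some of them work as complexes with small EF-hand proteins of the S100 family, which bind the N-terminal tail.

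The comparison was between 1 culture in 2-cm-high medium, labelled 2 cmH2O and also described in the labels as without pressure, and 1 culture in 50-cm-high medium, where the height of the medium above the cells set a static load of 50 cm H2O. These are called the 2-cm and the 50-cm culture. Both were MDCK cells plated on a culture insert and grown in EMEM with fetal calf serum, and the labels place both at day 3. The question was how gene expression differs under the pressure load. With 1 culture at each height there was no replicate error, so no difference below was tested, and each is a ratio between 2 libraries. In such bulk RNA, fewer cells of a type and less RNA per cell cannot be told apart.

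The epithelial label was checked with markers, which do not bear on the columnar shape of the cells. KRT8, a keratin of simple epithelium, had 1641 FPKM at 2 cm and 1561 FPKM at 50 cm, and all 5 epithelium markers were above 1 FPKM in both cultures. PAX8, a transcription factor of the renal tubule, had 65.1 and 57.6 FPKM, whereas CDH16, the kidney cadherin, had 1.96 and 0.676 FPKM. The 5 mesenchyme markers summed to 0.356 and 0.401 FPKM, the 3 endothelium markers to 0.458 and 0.268 FPKM, and the 2 leukocyte markers with a row, PTPRC and CD3E, were listed at 0. The part of CDH16 or of other cell types in the annexin values was not tested.

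ANXA2 and ANXA1 dominated the family in both cultures. ANXA2, which joins S100A10 in a heterotetramer at the cortical actin, had 3143 FPKM at 2 cm and 3619 FPKM at 50 cm, and it ranked 10 and 8 among all features. ANXA1, known as a regulator of phospholipase A2 and of inflammation and a substrate of the EGF receptor, had 1589 and 1855 FPKM, ranks 42 and 33. These 2 genes held 87.9% of the summed FPKM of the members at 2 cm and 89.2% at 50 cm. Because FPKM is scaled by exon length, levels were set side by side between genes. The gene models behind this scaling were not given, so such comparisons are approximate. The level of ANXA2 was 1.98 times that of ANXA1 in the 2-cm culture and 1.95 times in the 50-cm culture.

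The middle of the family lay about an order of magnitude lower. ANXA4, an annexin of secretory and absorptive epithelia, had 229 FPKM at 2 cm and 206 FPKM at 50 cm. ANXA11, which has a long proline- and glycine-rich tail and links RNA granules to lysosomes, had 173 and 195 FPKM. ANXA5, the phosphatidylserine binder used to stain apoptotic cells, had 125 and 141 FPKM. ANXA7, the other long-tailed annexin, first described as synexin for its ability to aggregate secretory granules, had 89.0 and 96.6 FPKM. The order ANXA2, ANXA1, ANXA4, ANXA11, ANXA5, ANXA7 was the same at both heights. ANXA4 and ANXA11 came closest to trading places, since the level of ANXA4 was 1.32 times that of ANXA11 at 2 cm and 1.05 times at 50 cm. Without replicates, whether such neighbours differ beyond their spread is unknown.

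At the lower end of the family the order changed. ANXA3 had 20.6 FPKM at 2 cm and 9.12 FPKM at 50 cm, and ANXA9, an annexin whose core lacks the residues that usually hold calcium, had 14.3 and 12.9 FPKM. The level of ANXA3 was therefore 1.44 times that of ANXA9 in the 2-cm culture and 0.707 times in the 50-cm culture. ANXA6, the annexin with a duplicated core, had 0.150 and 0.274 FPKM, far below all other members.

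**Figure D1:**
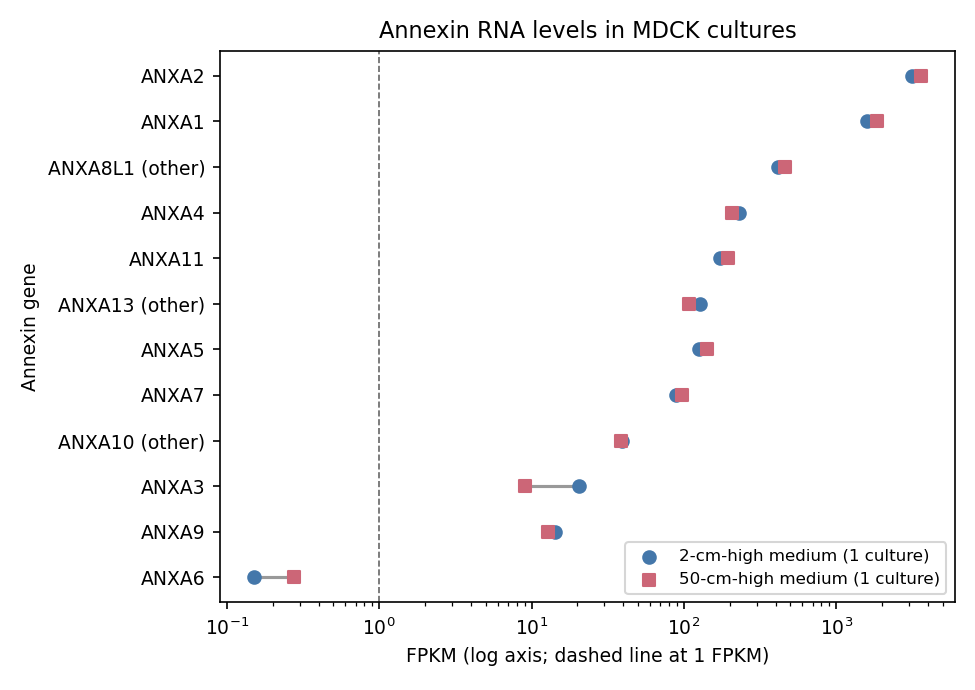
FPKM of each annexin gene (log axis) in the 2-cm culture (circles) and the 50-cm culture (squares), 1 culture each with no error bars, ordered by level at 2 cm; annexins that are not members are marked "other". ANXA2 is highest at 3143 and 3619 FPKM, ANXA3 is the gene above 1 FPKM whose symbols stand clearly apart (20.6 and 9.12 FPKM), and ANXA6 lies below 1 FPKM in both.

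ANXA3 was the member with the largest difference. Its level was 2.26-fold lower at 50 cm (ratio 0.442, log2 ratio -1.18), which passed the 2-fold limit of the study in the downward direction. ANXA3 is a short-tailed annexin known from neutrophils, from the control of phospholipase A2 and as an angiogenic factor. Among the 11057 features above 1 FPKM in both cultures, 1.67% passed 2-fold in either direction, 1.28% downward and 0.389% upward, and ANXA3 had rank 79 from the lowest ratio. Against this background, 1 of 8 members (12.5%) passed 2-fold, which is the single gene ANXA3 and gives no picture of the family. Of the 500 features nearest to ANXA3 in mean log2 FPKM, 2 had a lower ratio, and the middle 50% of these features (from the 25th to the 75th percentile) ran from -0.15 to 0.13 on the log2 scale.

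The ratio of ANXA6 lay on a step of few reads, and that of ANXA3 did not. Among features listed above 0 and below 0.1 FPKM in both cultures, the commonest ratio was 1.098 (219 of 574 features), the ratio where 1 read fell on a gene in each library, so the FPKM value of a single read was 9.77% larger at 50 cm. The ratio of ANXA6, 1.83, lay within 0.05% of that given by 3 reads at 2 cm and 5 reads at 50 cm, although multiples of these numbers give the same ratio. The number of reads on ANXA6 is unknown, and no change is read from its ratio. For ANXA3, no pair of read numbers up to 10 per culture gave the observed ratio. The read numbers behind the other values are unknown, so no counting interval was computed.

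The identity of the ANXA3 row rests on its symbol alone. The row stands among features named by LOC numbers, away from the other annexins. Of all rows, 1115 came alphabetically before the row above them, a count of breaks in the order of any kind. The files hold neither gene identifiers nor positions, and whether an overlapping feature contributed reads to ANXA3 was not tested.

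The other 7 members above 1 FPKM stayed within 1.5-fold. In all features, 7.19% lay beyond 1.5-fold, 2.13% upward and 5.06% downward, so that most features of any kind stayed within this limit. ANXA1 was 1.17-fold and ANXA2 1.15-fold higher at 50 cm, the largest upward ratios of the members above 1 FPKM. ANXA5 and ANXA11 followed at 1.13-fold each and ANXA7 at 1.08-fold. ANXA4 and ANXA9 were lower, both with a ratio of 0.90.

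Among the 8 members, 5 were thus higher and 3 lower, and their median log2 ratio was 0.15, compared with 0.01 for all 11057 features, of which 52.6% were higher. The middle 50% of all features ran from -0.17 to 0.17. Relative to the 500 features nearest in expression, ANXA5, ANXA7 and ANXA11 fell within the middle 50%. ANXA1 (log2 ratio 0.22) and ANXA2 (0.20) lay above an upper limit of 0.16, with 84 and 93 of these features higher, respectively, although for genes this abundant nearly all of the nearest features are less expressed. ANXA4 (-0.15) lay below a lower limit of -0.02, with 43 of the 500 features lower, and ANXA9 (-0.154) lay just below a limit of -0.147. These limits describe the spread between genes and not the error of a gene.

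**Figure D2:**
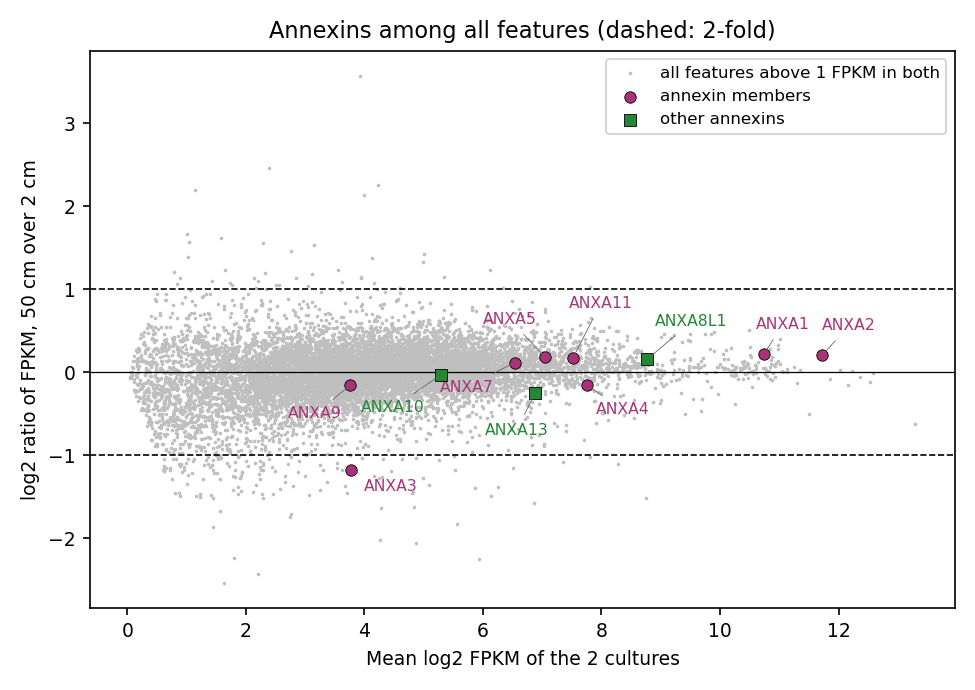
Log2 ratio of FPKM (50 cm over 2 cm) against mean log2 FPKM of the 2 cultures for all 11057 features above 1 FPKM in both (grey), with the 8 annexin members (circles) and 3 other annexins (squares); dashed lines mark 2-fold. ANXA3, at -1.18, is the annexin beyond a dashed line, and the other plotted annexins lie between -0.25 and 0.22.

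Because ANXA2 and ANXA1 are so abundant, small ratios meant large differences in FPKM. ANXA2 was 476 FPKM and ANXA1 266 FPKM higher at 50 cm, whereas the difference for ANXA3 was -11.5 FPKM. The FPKM sum of the 9 members went from 5382 at 2 cm to 6134 at 50 cm, a ratio of 1.14, and its share of the FPKM sum of all features was 0.896% and 0.999%. The share of ANXA3 in the members' sum was 0.383% and 0.149%.

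The members differ in their N-terminal tails. Both annexins with an S100-binding tail of helical type, ANXA1 and ANXA2, were higher at 50 cm, as were both long-tailed annexins, ANXA7 and ANXA11. Of the short-tailed annexins ANXA3, ANXA4 and ANXA5, both ANXA3 and ANXA4 were lower and ANXA5 was higher. ANXA9, with its divergent core, was lower. No difference between these kinds of annexin was tested, and the statements are about the named genes.

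The direction of each of the 8 members was kept under all alternatives tried, which were pseudocounts of 0.1 and 1, recentring on the median, scaling to the same FPKM sum, quantile normalization and other FPKM minima wherever the gene passed them. Pseudocounts and FPKM minima cannot reverse the direction of a ratio, so these alternatives were no check of it. Recentring and an equal FPKM sum shift all log2 ratios by a constant below 0.1. The member ratio nearest to 0 was 0.12 (ANXA7), so these shifts could not reverse a member either. Quantile normalization was thus the only alternative that could have changed a direction. ANXA3 lay between -1.21 and -1.10 on the log2 scale, past 2-fold under each alternative. ANXA2 moved most, from 0.20 to 0.36 under quantile normalization, a method that is coarse among the few most abundant features. ANXA7 came nearest to 0, at 0.05 under the same normalization.

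**Figure D3:**
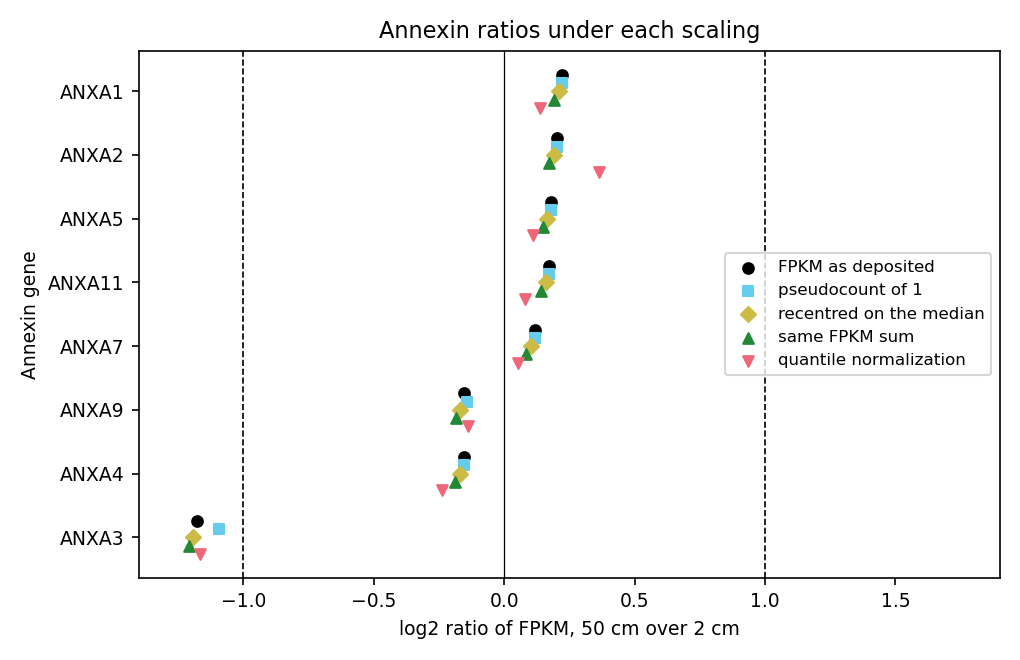
Log2 ratio of FPKM (50 cm over 2 cm) of the 8 annexin members above 1 FPKM in both cultures, as deposited and under 4 alternatives (symbols); the dashed lines mark 2-fold and no error bars exist with 1 culture a group. All symbols of a gene lie on the same side of 0, and all symbols of ANXA3 lie beyond the 2-fold line.

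Among annexins outside the member list, ANXA8L1, ANXA13 and ANXA10 had a row. ANXA8L1, a gene that in human is nearly identical to ANXA8, had 413 FPKM at 2 cm and 461 FPKM at 50 cm (ratio 1.11), which placed it between ANXA1 and ANXA4. Whether reads of ANXA8 were counted under ANXA8L1 was not tested. ANXA13, an annexin of kidney and intestinal epithelium that acts in apical and basolateral transport, had 128 and 108 FPKM (ratio 0.843), and ANXA10 had 39.4 and 38.6 FPKM (ratio 0.979). None of these 3 genes passed 1.5-fold, and their direction was also the same under each alternative. Here too, quantile normalization was the only alternative that could have changed it.

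S100 proteins include the partners of annexins. S100A10, the partner of ANXA2, had 619.9 FPKM at 2 cm and 809 FPKM at 50 cm, a ratio of 1.30. S100A11, the partner of ANXA1, had 1003 and 1209 FPKM, a ratio of 1.21. S100A6, or calcyclin, which binds ANXA2 and ANXA11, was the most abundant of the family at 4801 and 4321 FPKM, a ratio of 0.900. Thus S100A10 and S100A11 differed in the same direction as ANXA2 and ANXA1, and S100A6 in the opposite direction. The level of ANXA2 was 5.07 times that of S100A10 at 2 cm and 4.47 times at 50 cm, and the level of ANXA1 was 1.58 and 1.53 times that of S100A11.

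Of the 20 listed S100 genes, 18 had a row and 11 were above 1 FPKM in both cultures. Of these 11 genes, 3 were higher and 8 lower at 50 cm, with a median log2 ratio of -0.15. S100A1 was past 2-fold, from 2.28 to 1.04 FPKM (ratio 0.457), and no other of these 11 genes passed 1.5-fold. S100A5, which was left out because it lay below 1 FPKM at 50 cm, went from 1.89 to 0.837 FPKM (ratio 0.444). Over all features, 1.67% passed 2-fold, 7.19% passed 1.5-fold and 52.6% were higher. S100A1 no longer passed 2-fold with a pseudocount of 1 (log2 ratio -0.68) or under quantile normalization (-0.90).

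Membrane repair genes were listed because annexins take part in the resealing of torn membrane. All 32 had a row, 26 were above 1 FPKM in both cultures, and none of these passed 1.5-fold, compared with 7.19% of all features. Of the 26 genes, 16 were higher and 10 lower, with a median log2 ratio of 0.06, whereas 52.6% of all features were higher. The extremes were AHNAK2, from 15.2 to 22.2 FPKM (ratio 1.46), and DYSF, which encodes the repair protein dysferlin, from 2.75 to 1.97 FPKM (ratio 0.716). AHNAK, a giant scaffold protein that binds S100A10 and ANXA2, had 95.7 and 118 FPKM (ratio 1.23).

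Proteins with C2 domains bind calcium and phospholipid by another fold than annexins, and they include copines, synaptotagmins and conventional protein kinase C. Of 48 listed genes, 45 had a row and 23 were above 1 FPKM in both cultures, 9 of them higher and 14 lower, with a median log2 ratio of -0.04. In all features, 52.6% were higher, 1.67% passed 2-fold and 7.19% passed 1.5-fold. SYT8 went from 12.2 to 3.67 FPKM (ratio 0.2999) and SYT11 from 6.18 to 2.30 FPKM (ratio 0.372). Of the 23 genes, these 2 synaptotagmin genes were the ones past 2-fold. SYT2, from 1.86 to 1.20 FPKM (ratio 0.642), and PRKCA, which encodes protein kinase C alpha, from 4.06 to 6.64 FPKM (ratio 1.63), passed 1.5-fold. SYT2 no longer passed 1.5-fold with a pseudocount of 1 (log2 ratio -0.38) or under quantile normalization (-0.41).

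A list of genes around ANXA1 held its formyl peptide receptors, cytosolic phospholipases A2, prostaglandin enzymes and the glucocorticoid receptor, since glucocorticoids are known inducers of ANXA1. Of its 18 genes, 15 had a row and 8 were above 1 FPKM in both cultures, 4 higher and 4 lower, with a median log2 ratio of -0.001. TSC22D3, a glucocorticoid-induced gene, had 18.5 FPKM at 2 cm and 11.6 FPKM at 50 cm (ratio 0.629). NR3C1, the gene of the glucocorticoid receptor, had 8.57 and 8.64 FPKM (ratio 1.01). FKBP5, also on the list, had 34.1 and 33.7 FPKM (ratio 0.990). Of the 8 genes, TSC22D3 was the one past 1.5-fold, a limit that 7.19% of all features passed, and 52.6% of all features were higher. PLA2G4A, the phospholipase A2 that ANXA1 is known to inhibit, had 33.0 and 27.4 FPKM (ratio 0.830). The prostaglandin enzyme genes PTGS2, with 8.64 and 12.5 FPKM (ratio 1.44), and PTGES, with 5.65 and 6.56 FPKM (ratio 1.16), were higher at 50 cm. FPR2, the receptor through which secreted ANXA1 signals, was listed at 0 in both cultures, which does not show that its RNA was absent, because ATP5O, a subunit gene of the mitochondrial ATP synthase, was listed at 0 as well.

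**Figure D4:**
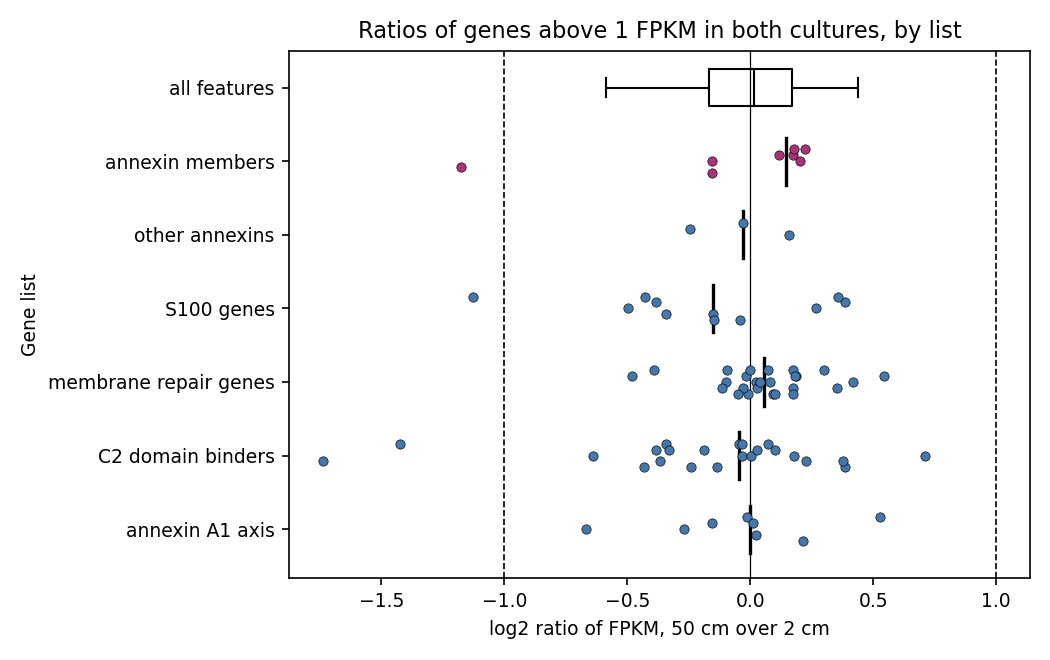
Log2 ratio of FPKM (50 cm over 2 cm) of each gene above 1 FPKM in both cultures, by list (points), with the list median (vertical bar); the box gives the quartiles of all 11057 features, its whiskers their 5th and 95th percentiles, and dashed lines mark 2-fold. The medians lie between -0.15 (S100 genes) and 0.15 (annexin members), and ANXA3, S100A1, SYT8 and SYT11 lie beyond 2-fold.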

How the data were processed

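The authors prepared stranded mRNA libraries (TruSeq) from 1 MDCK culture in 2-cm-high and 1 in 50-cm-high medium, sequenced them in single-end mode (75 bases), aligned the reads to CanFam3.1 with TopHat2 2.0.13 (Bowtie2 2.2.3, SAMtools 0.1.19, per the submitters' processing notes), and deposited FPKM values from Cuffnorm 2.2.1. Its scaling method and the gene models were not given in the sources used here. Abundant genes shift the FPKM of others, and the number of reads is unknown, so that precision could not be computed.

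Ratios were the 50-cm over the 2-cm FPKM value with no pseudocount, over all features exceeding 1 FPKM at both heights, with limits of 2-fold and 1.5-fold. With 1 sample a group, no test was made. The annexins and the other lists were chosen with earlier results of these data known. Named were all members, the S100 partners S100A10, S100A6 and S100A11, and, of each other list, genes past 1.5-fold or otherwise the 2 most extreme genes. ANXA10, AHNAK, PLA2G4A, PTGS2, PTGES, FPR2, NR3C1, FKBP5 and S100A5 were named after their values were seen. For ANXA2 (highest level) and ANXA3 (largest ratio), the 3 features nearest in log2 FPKM over both samples were also named. The script was tested on simulated data.

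Of the symbols, 17905 matched the RefSeq table of UU_Cfam_GSD_1.0, including all 9 members with a row. It is another build than that of the files. It served for names and for the order of protein-coding genes, sorted by start position in that build, and sequences were not analysed here. The alternatives were FPKM minima of 0 and 5, pseudocounts of 0.1 and 1, recentring, an equal FPKM sum and quantile normalization. Computation used pandas 2.3.3 and numpy 2.4.6 in Python 3.11.15, and figures used matplotlib 3.10.9.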

Additional observations from a re-analysis of the deposited data

How the results depend on the processing

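A value was taken as moved when it shifted by 0.1 or more on the log2 scale, and a count when it changed by more than 1.5 times, since no replicate spread exists. Of 302 recomputed values, 281 had not moved and 21 had, and no log2 ratio of a member changed sign. Part of this tally was fixed in advance, because an FPKM minimum leaves the ratio of a gene unchanged. Recentring and an equal FPKM sum shift all log2 ratios by a constant below 0.1, so single ratios could not move under them either. With features above 0 FPKM admitted, ANXA6 joined the members, so that 2 instead of 1 passed 1.5-fold. The counts past 1.5-fold then became 2 for S100 genes, 2 for membrane repair genes, 7 for C2 domain genes and 4 for the ANXA1 list, and 1216 features passed 2-fold in all. At a minimum of 5 FPKM, 0 S100 genes and 0 C2 domain genes passed 1.5-fold, because S100A1, SYT8, SYT11, SYT2 and PRKCA did not reach this minimum in both cultures, and 62 features passed 2-fold. With a pseudocount of 1, 92 features did. ANXA3 passed 2-fold throughout. Quantile normalization gave ANXA2 a log2 ratio of 0.36. No paired analysis was possible because each height had 1 culture, and for the same reason no culture could be left out. Depth is unknown for single genes, and ANXA6 lay on a step of few reads.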

Other observations

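The features nearest to ANXA2 in log2 FPKM over the 2 cultures, among those above 1 FPKM, were GAPDH (3808 FPKM at 2 cm and 3598 FPKM at 50 cm, distance 0.28), RPS21 (4128 and 4219 FPKM, distance 0.45) and FTL (2570.4 and 2631 FPKM, distance 0.54). The ratios of these 3 genes were 0.945, 1.02 and 1.02, compared with 1.15 for ANXA2. Nearest to ANXA3 were DECR1 (19.01 and 9.54 FPKM, distance 0.13), AS3MT (20.5 and 7.93 FPKM, distance 0.20) and LOC100686340 (21.7 and 7.94 FPKM, distance 0.21). With 2 samples, such likeness says only that the level and the ratio were close.

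The nearest flanking protein-coding genes with a row were taken from the gene order of the RefSeq table, a comparison chosen after the values had been seen. Those above 1 FPKM in both cultures are given here. Genes without a row were skipped, so some flanking genes were not direct neighbours. SFTPD was 4 genes away, VPS13C and BNIPL were 3 away, and BMP2K, EXOSC9 and MRPS16 were 2 away. On the sides of ANXA3 (ratio 0.442), BMP2K, which encodes a kinase, had 18.2 FPKM at 2 cm and 21.0 FPKM at 50 cm (ratio 1.15), and FRAS1 was below 1 FPKM. Beside ANXA1 (ratio 1.17), ALDH1A1, a retinaldehyde dehydrogenase gene, had 297 and 194 FPKM (ratio 0.653). ANXA9 (ratio 0.90) lay between CERS2, a ceramide synthase gene with 66.8 and 88.8 FPKM (ratio 1.33), and BNIPL, with 1.496 and 1.08 FPKM (ratio 0.723). The flanking gene had a ratio of 1.36 for ANXA5 (EXOSC9), 1.19 for ANXA7 (MRPS16), 1.12 for ANXA4 (GMCL1), 1.15 for ANXA6 (TNIP1), 0.883 for ANXA2 (VPS13C) and 0.638 for ANXA11 (SFTPD). Flanking genes were thus found with ratios on the same side of 1 as their annexin and on the other side, and no relation was tested.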
